A study of Mus musculus with 8 samples.

Results

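The genes described here are 10 members of the p53 pathway: Trp53, which encodes p53 itself, and 9 genes known as its targets, namely Mdm2, Zmat3, Plk2, Sesn1, Sesn2, Ccng1, Trp53inp1, Phlda3 and Perp. They were chosen by gene symbol, with earlier results of these data known, and every probe set annotated to a single one of these symbols was taken. Such probe sets existed for 9 of the 10 genes, 19 probe sets in all, among 18193 genes with a named probe set on the array. Trp53 was named by no probe set in the annotation used and was not analysed here. The values below are therefore those of p53 targets, and the level of p53 is not among them.

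Expression was read on 8 Affymetrix Mouse Genome 430 2.0 arrays, in 4 groups of 2, to ask what loss of the zinc finger transcription factor Zfx does to gene expression in mouse stem cells. Embryonic stem cells (ESC) were cloned Zfx-null cells or control Zfx-flox cells, whose Zfx gene is flanked by loxP sites but intact, and both were cultured on gelatin with serum replacement and LIF and without feeder cells. Hematopoietic stem cells (HSC) were marrow cells sorted as Lin-, Sca1+ and c-Kit+, a gate that holds stem cells together with multipotent progenitors. They came from Mx1-Cre+ Zfx flox/y mice (Zfx-cko), in which Cre driven by the interferon-inducible Mx1 promoter deletes Zfx, or from Cre- Zfx flox/y littermates (Zfx-flox). Marrow was pooled from 4 to 6 mice and taken 4 days after the last injection of pI·C, which induces interferon, so that Cre and deletion of Zfx went together in the HSC groups and cannot be told apart. The sources used here do not give the number and origin of the ESC clones or the age of the mice. Hybridizations were made in duplicate, and both arrays of a group could hold the same RNA, in which case the p-values cover technical spread and no spread between cultures or animals.

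p53 is a transcription factor that is kept low by its ubiquitin ligase Mdm2 and accumulates after DNA damage, oncogene activity and other stress. It then switches on genes that halt the cell cycle, such as the kinase inhibitor Cdkn1a (p21), genes that promote cell death, genes that limit oxidative stress, and its own inhibitors, Mdm2 first among them. In embryonic stem cells p53 is known to be abundant and to restrain self-renewal, and in hematopoietic stem cells it is known as a regulator of quiescence and of the response to irradiation. When p53 is activated its targets are known to rise together, and the question asked of these arrays was whether the members moved together when Zfx was absent.

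p53 binds a pair of 10-base half-sites, and several of the known sites of these genes lie outside the promoter, in introns or further upstream. RefSeq promoter windows (build GRCm38.p6, 250 bases before to 50 after an annotated start) were held for 6 of the 9 members, and each was searched for the p53 half-site consensus, a palindromic pattern that reads alike on both strands. The consensus occurs in 8.36% of the 32851 windows in that table. The Mdm2 window (chr10:117710709-117711008, minus strand) held 1 match, GAACTTGCCT, 186 bases before the start. The Ccng1 window (chr11:40755237-40755536, minus strand) held GGGCAAGCCT at 185 bases before the start, and the window of the second Sesn1 start (chr10:41887189-41887488, plus strand) held AAGCTTGTTT at 173. The windows of Plk2 (chr13:110394794-110395093, plus strand), Sesn2, Phlda3 and the first Sesn1 start held no match. They are shown for the members whose changes the results turn on, together with Cdkn1a (first start, chr17:29090729-29091028, plus strand), whose window held 2 matches and a pair of adjoining half-sites with 1 mismatch, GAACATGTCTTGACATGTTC, at 51 bases before the start. The window of the second Cdkn1a start (chr17:29093519-29093818, plus strand) held no match and no such pair. Of all windows, 0.158% held an adjoining pair with at most 2 mismatches. Capitals mark the matches, which are a description of these letters and not evidence of binding. The sequences run 5′ to 3′.
Mdm2: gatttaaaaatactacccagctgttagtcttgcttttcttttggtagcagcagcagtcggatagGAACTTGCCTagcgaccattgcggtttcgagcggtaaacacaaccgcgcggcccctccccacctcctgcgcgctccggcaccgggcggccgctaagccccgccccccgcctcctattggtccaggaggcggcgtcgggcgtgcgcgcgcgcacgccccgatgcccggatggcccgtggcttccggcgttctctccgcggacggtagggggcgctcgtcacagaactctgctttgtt
Ccng1: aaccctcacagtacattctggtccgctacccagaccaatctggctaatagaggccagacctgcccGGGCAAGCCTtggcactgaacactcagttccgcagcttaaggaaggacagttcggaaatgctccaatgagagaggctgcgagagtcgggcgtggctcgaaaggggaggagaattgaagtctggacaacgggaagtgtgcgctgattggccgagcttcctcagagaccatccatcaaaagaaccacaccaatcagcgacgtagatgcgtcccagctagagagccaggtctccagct
Sesn1, second start: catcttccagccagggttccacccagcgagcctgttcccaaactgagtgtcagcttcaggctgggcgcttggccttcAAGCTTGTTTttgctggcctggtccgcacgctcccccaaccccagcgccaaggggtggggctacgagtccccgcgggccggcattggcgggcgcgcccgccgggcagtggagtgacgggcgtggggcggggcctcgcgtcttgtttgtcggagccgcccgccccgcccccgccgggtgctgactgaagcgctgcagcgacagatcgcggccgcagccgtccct
Plk2: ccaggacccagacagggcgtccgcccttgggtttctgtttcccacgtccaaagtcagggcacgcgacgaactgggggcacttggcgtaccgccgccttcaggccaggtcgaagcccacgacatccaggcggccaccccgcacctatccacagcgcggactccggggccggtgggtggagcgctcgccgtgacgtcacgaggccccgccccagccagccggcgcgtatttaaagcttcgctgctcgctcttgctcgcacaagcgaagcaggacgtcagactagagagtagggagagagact
Cdkn1a, first start: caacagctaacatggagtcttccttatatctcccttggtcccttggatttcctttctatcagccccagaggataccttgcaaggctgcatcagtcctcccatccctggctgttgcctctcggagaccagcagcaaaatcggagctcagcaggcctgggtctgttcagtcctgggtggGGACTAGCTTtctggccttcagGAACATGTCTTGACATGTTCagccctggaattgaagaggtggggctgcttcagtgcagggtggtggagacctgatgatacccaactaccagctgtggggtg

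The arrays were alike in overall scale, with a median intensity of 38.2 to 66.3 and 69.4% to 78.9% of probe sets above the pseudocount of 14.2 that was added before taking log2. HSC RNA went through 2 rounds of amplification and ESC RNA through 1, and levels were therefore not tested between cell types. The log2 ratio of 5′ to 3′ Gapdh control signal was −4.68 and −4.39 in Zfx-cko HSC, against −4.18 and −4.25 in Zfx-flox HSC, and 0.38 to 0.44 over the 4 ESC arrays. The arrays correlated at r = 0.980 to 0.987 within a group. Loss of Zfx was visible in ESC at the probe set 1422249_s_at, annotated to Zfx and the pseudogene Zfa-ps, with 1.32 and 0.878 in Zfx-null cells, against 285 and 298 in Zfx-flox cells. In HSC it read 1.34 and 0.305 in Zfx-cko cells, against 7.22 and 0.971 in Zfx-flox cells, too low in both groups to check the deletion. Of the other 6 Zfx probe sets, 5 rose in Zfx-null ESC, by 0.79 to 1.65 on the log2 scale, and 1 of these, 1425972_a_at, also rose in Zfx-cko HSC, by 0.72 (adjusted p = 0.000826, limma). The sources used here do not give the deleted part of the gene, so these probe sets do not check the labels. The pluripotency factors Pou5f1, Nanog and Sox2 lay above the pseudocount in both ESC groups and below it in both HSC groups, as did Utf1 and Tdgf1. Other markers of pluripotent cells did not fall below it in HSC. Dppa5a had means of 69.9 in Zfx-cko and 78.8 in Zfx-flox HSC, and Esrrb 71.5 and 94.4. Zfp42 lay above it in Zfx-cko HSC (17.8) and below it in Zfx-flox HSC (9.15).

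The members did not move in 1 direction in either cell type. In Zfx-null ESC, Plk2 and Ccng1 rose, Sesn1 fell and the other 6 members did not pass the test, which makes 3 of 9 called, against 29.6% of the 12677 genes tested in ESC (15.3% higher and 14.3% lower). In Zfx-cko HSC, Plk2, Trp53inp1, Mdm2 and Sesn1 rose, Zmat3 and Ccng1 fell, and Sesn2, Phlda3 and Perp did not pass, which makes 6 of 9 called, against 42.2% of the 12535 genes tested in HSC (22.6% higher and 19.6% lower). Each gene is counted by its probe set of highest mean, and a call is an adjusted p under 0.05 by limma with Benjamini-Hochberg adjustment over all probe sets tested in that comparison. Over all member probe sets, 6 of 16 tested were called in ESC (3 higher and 3 lower), against 25% of 27022 (12.3% higher and 12.7% lower), and 11 of 16 in HSC (7 higher and 4 lower), against 38% (21.9% higher and 16.1% lower). The arrays of the groups did not overlap for 7 of the 9 members in ESC, against 64.6% of all genes, and for 6 of 9 in HSC, against 72.4%. The share of members called in ESC was close to that of all genes. With 9 genes the share in HSC rests on a few calls, and 1 of them, Plk2, passed the filter on low values through the Zfx-cko arrays alone, so that it had to differ. The median log2 change of the members was 0.0086 in ESC, against −0.031 over all genes tested, and 0.21 in HSC, against 0.028.

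**Figure D1:**
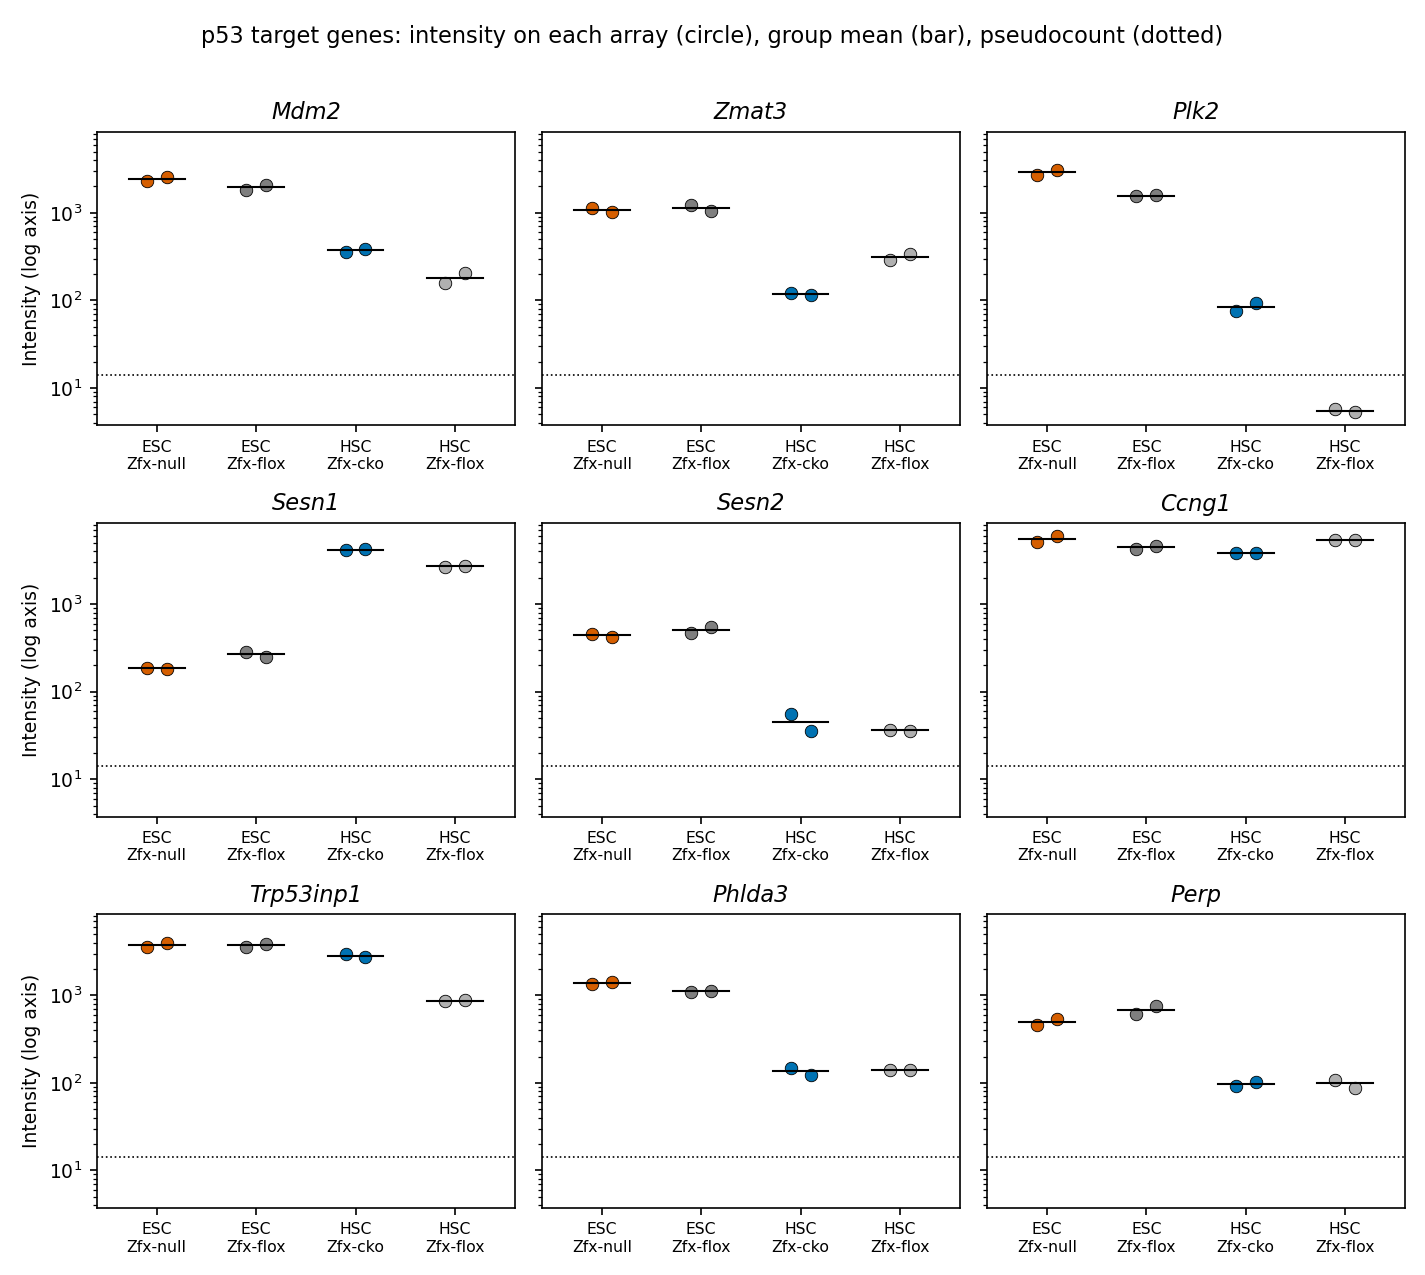
Probe set intensity (log axis) of the 9 members on the 8 arrays, Zfx-null or Zfx-cko left of Zfx-flox, each point being 1 array. Trp53inp1 stands at 2946 and 2726 in Zfx-cko HSC and at 850 and 882 in Zfx-flox HSC, while its 4 ESC arrays lie between 3552 and 3928.

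Mdm2, the ligase that ubiquitinates p53 and ends its activity, lies at chr10:117688875-117710758. In ESC its brightest probe set, 1423605_a_at, read 2295 and 2596 in Zfx-null cells, against 1832 and 2076 in Zfx-flox cells. The groups did not overlap, but the log2 change of 0.32 ± 0.12 (SE) did not pass the test (adjusted p = 0.0937, limma). In HSC the same probe set read 357 and 390 in Zfx-cko cells, against 159 and 205 in Zfx-flox cells. Mdm2 thus rose by 0.99 ± 0.12 on the log2 scale in Zfx-cko HSC, a 1.99-fold change (adjusted p = 0.000294). A second Mdm2 probe set, 1427718_a_at, did not show this: it read 53.9 and 41.8 in Zfx-cko HSC, against 48.4 and 45.9 in Zfx-flox HSC, with a log2 change of 0.01 ± 0.12. With the mean of all Mdm2 probe sets in place of the brightest, the HSC change was 0.41 and did not pass (adjusted p = 0.0719, limma). In ESC the second probe set gave 0.33 ± 0.12, close to the first. In bulk arrays such as these, fewer cells of a type and less RNA per cell cannot be told apart.

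Ccng1, which encodes cyclin G1, a partner of protein phosphatase 2A that is known to feed back on Mdm2 and p53 (chr11:40748552-40755309), moved in opposite directions in the 2 cell types. In ESC its probe set 1420827_a_at read 5175 and 5935 in Zfx-null cells, against 4271 and 4599 in Zfx-flox cells. The rise of 0.32 ± 0.07 on the log2 scale passed the test (adjusted p = 0.0115, limma). It rested on single arrays: without Zfx-flox replicate 1 it was 0.27 (adjusted p = 0.0713) and without Zfx-null replicate 2 it was 0.22 (adjusted p = 0.0592). In HSC the same probe set read 3852 and 3812 in Zfx-cko cells, against 5451 and 5358 in Zfx-flox cells. Cyclin G1 mRNA fell by 0.49 ± 0.07 in Zfx-cko HSC (adjusted p = 0.00068, limma). The other Ccng1 probe sets, 1450016_at and 1450017_at, fell by 1.02 and 0.82 in HSC and gave 0.21 and 0.32 in ESC, of which the 0.21 passed (adjusted p = 0.0446, limma). The fall in HSC was therefore read by all 3 probe sets of the gene, and their mean fell by 0.78.

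Trp53inp1 encodes a nuclear and autophagy-related protein that is known to promote p53-dependent cell death (chr4:11156441-11174379). Its probe set 1416926_at read 3552 and 3928 in Zfx-null ESC, against 3590 and 3841 in Zfx-flox ESC, and the log2 change was 0.01 ± 0.07. In HSC it read 2946 and 2726 in Zfx-cko cells, against 850 and 882 in Zfx-flox cells. The rise of 1.69 ± 0.07, or 3.24-fold, was the 316th largest of the 27022 probe sets tested in HSC (adjusted p = 1.42e-06, limma). The ESC groups overlapped, while in HSC both Zfx-cko arrays stood above both Zfx-flox arrays. The dimmer probe set 1416927_at, at 37.7 and 33.9 in Zfx-cko HSC, against 34.8 and 29.7 in Zfx-flox HSC, gave 0.11 ± 0.17 and did not pass. The mean of both gave a rise of 0.90 in HSC, which still passed.

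Zmat3, also known as Wig1, encodes a zinc finger protein that binds RNA (chr3:32334792-32365665). Its only probe set, 1449353_at, read 1132 and 1011 in Zfx-null ESC, against 1231 and 1056 in Zfx-flox ESC, groups that overlapped, with a log2 change of −0.09 ± 0.12. In HSC it read 120 and 116 in Zfx-cko cells, against 286 and 341 in Zfx-flox cells. Zmat3 fell by 1.31 ± 0.12 in Zfx-cko HSC, to 0.405 of the Zfx-flox level (adjusted p = 4.29e-05, limma). This was the strongest fall among the members in either cell type.

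Phlda3, an inhibitor of AKT signalling, and Perp, a membrane protein of cell death and of desmosomes, passed the test in neither cell type. Phlda3 (chr1:135766085-135769134) read 1339 and 1402 in Zfx-null ESC, against 1106 and 1118 in Zfx-flox ESC, a log2 change of 0.30 ± 0.10 that missed the threshold (adjusted p = 0.0541, limma). It passed in 8 of 20 alternatives, among them the fits without Zfx-cko HSC replicate 1 (adjusted p = 0.0353) and replicate 2 (adjusted p = 0.0344), which are not ESC arrays but share the estimate of spread. Perp (chr10:18845071-18857073) read 459 and 539 in Zfx-null ESC, against 618 and 746 in Zfx-flox ESC, with a log2 change of −0.44 ± 0.15 (adjusted p = 0.0597, limma) that passed in 5 of 20 alternatives, with a lowest adjusted p of 0.0372 under the replicate block. In HSC the groups overlapped for both genes. Phlda3 read 148 and 123 in Zfx-cko HSC, against 139 and 140 in Zfx-flox HSC, and Perp read 91.6 and 103 in Zfx-cko HSC, against 109 and 88.1 in Zfx-flox HSC.

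Plk2, a polo-like kinase known to act in centriole duplication and in checkpoint control (chr13:110395044-110400844), was the 1 member called higher in both cell types. The HSC call carries no weight, for the reason given below. Its probe set 1427005_at read 2719 and 3097 in Zfx-null ESC, against 1541 and 1587 in Zfx-flox ESC. The log2 change was 0.89 ± 0.12, or 1.85-fold (adjusted p = 0.00101, limma). In HSC it read 74.8 and 92.7 in Zfx-cko cells, against 5.68 and 5.33 in Zfx-flox cells. All 4 arrays of the cells without Zfx thus lay above the controls of their own cell type. The Zfx-flox HSC signal lay below the pseudocount, and the probe set passed the filter through Zfx-cko alone. It therefore had to be higher in Zfx-cko HSC. The HSC values are given as a description, and the direction, size, rank and p of the change carry no weight. The fitted log2 change in HSC was 2.31 with the pseudocount used and 3.92 with none. A second probe set, 1443780_at, was too dim to be tested, and with the mean of both the change was 0.30 in ESC, which did not pass (adjusted p = 0.287, limma), and 1.19 in HSC.

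The sestrins are stress-induced proteins that restrain mTORC1 and limit oxidative damage. Sesn1 (chr10:41810574-41908436) fell in ESC and rose in HSC. Its probe set 1438931_s_at read 188 and 180 in Zfx-null ESC, against 287 and 246 in Zfx-flox ESC, a fall of 0.49 ± 0.08 (adjusted p = 0.00312, limma). In HSC it read 4097 and 4254 in Zfx-cko cells, against 2658 and 2749 in Zfx-flox cells, a rise of 0.62 ± 0.08 (adjusted p = 0.000426, limma). The groups did not overlap in either cell type, in opposite orders. The probe sets 1433711_s_at and 1454699_at fell by 0.51 and 0.74 in ESC and rose by 0.33 and 0.42 in HSC, and 1444376_at, tested in HSC alone, rose by 0.78. All 3 probe sets tested in ESC and all 4 tested in HSC passed the test.

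Sesn2 (chr4:132492804-132510456) passed in neither cell type. Its probe set 1451599_at read 451 and 426 in Zfx-null ESC, against 469 and 541 in Zfx-flox ESC. The groups did not overlap, and the log2 change was −0.19 ± 0.17. In HSC it read 55 and 35.3 in Zfx-cko cells, against 36.7 and 36.0 in Zfx-flox cells, with a log2 change of 0.21 ± 0.17 that had no settled sign, since it was −0.03 without Zfx-cko replicate 1. A second probe set, 1425139_at, gave −0.39 ± 0.31 in ESC and did not pass. It was too dim to be tested in HSC, where it read 4.70 and 6.16 in Zfx-cko cells, against 9.04 and 29.8 in Zfx-flox cells. The brightest probe sets of Sesn1 and Sesn2 had the same sign within each cell type, but only the Sesn1 changes passed. Whether the family shared a direction is therefore not settled by these values. Sesn3, which is not a member, is given with the other targets below.

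**Figure D2:**
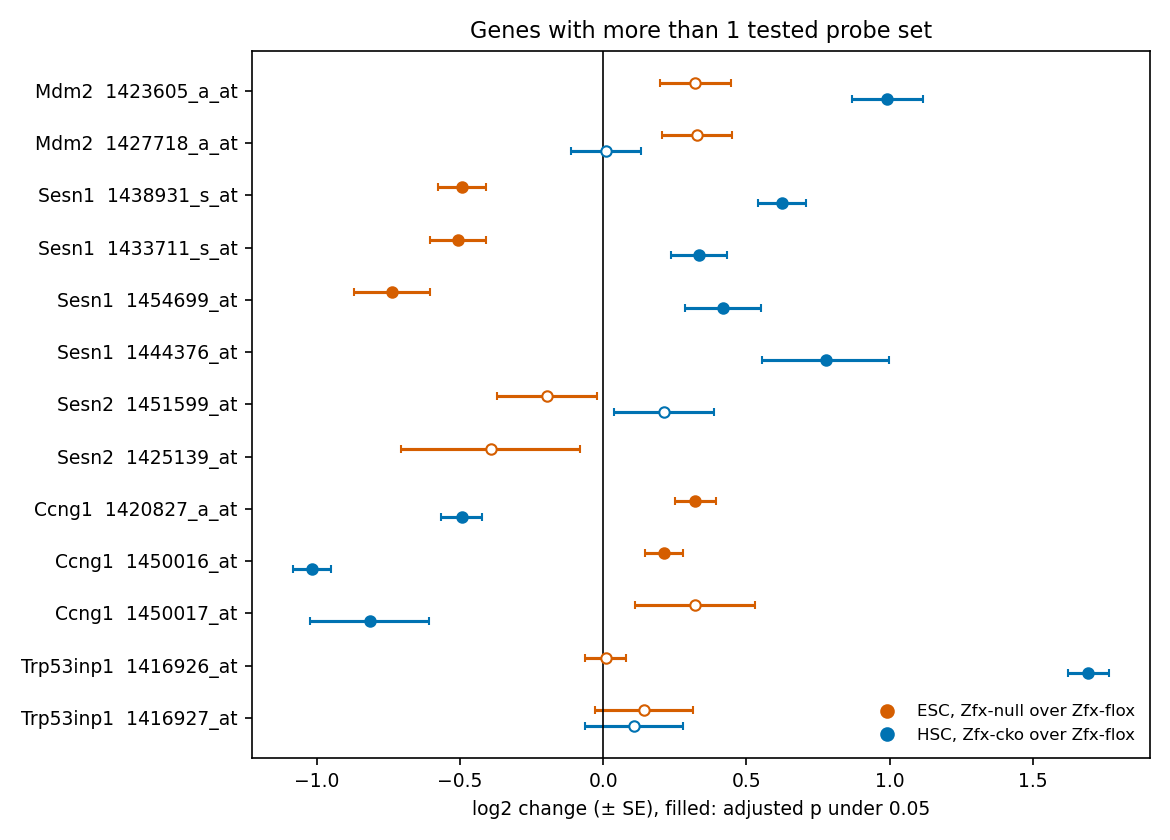
Log2 change of each tested probe set of Mdm2, Sesn1, Sesn2, Ccng1 and Trp53inp1, Zfx-null over Zfx-flox in ESC and Zfx-cko over Zfx-flox in HSC, with bars of 1 SE. The Sesn1 and Ccng1 probe sets lie on opposite sides of 0 in the 2 cell types, whereas the 2 Mdm2 probe sets differ in HSC, at 0.99 and 0.01.

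The HSC effect minus the ESC effect was tested in the same model. Cell type went together with the rounds of amplification and with the way Zfx was lost. These cannot be told apart in the difference. It passed for 6 of the 9 members, against 34.9% of the 11181 genes tested in both cell types (17.4% higher and 17.5% lower), and for 10 of 15 member probe sets, against 32.4% of 22818 (17.9% higher and 14.5% lower). The HSC effect was the higher for Trp53inp1 by 1.69 ± 0.10 (adjusted p = 2.06e-05, limma), for Plk2 by 1.42 ± 0.17, for Sesn1 by 1.12 ± 0.12 and for Mdm2 by 0.67 ± 0.18. It was the lower for Zmat3 by 1.21 ± 0.16 and for Ccng1 by 0.82 ± 0.10, and adjusted p lay between 2.06e-05 and 0.0183 for the 6. The members with opposite calls in the 2 cell types were thus Sesn1 and Ccng1. Plk2 was called higher in both, but its direction in HSC was set by the filter. The Plk2 difference rests on the Zfx-flox HSC signal below the pseudocount and on a probe set that passed the filter through Zfx-cko alone, so its size is not settled: it was 3.03 with no pseudocount and 0.88 with the mean of its probe sets. The difference of Trp53inp1 was 0.83 with the mean of its probe sets. The Mdm2 difference depended on the probe set: the second one, 1427718_a_at, gave −0.32, which is of opposite sign and did not pass (adjusted p = 0.194, limma), and the mean of all Mdm2 probe sets gave 0.09 (adjusted p = 0.80). It did not pass in 9 of 19 alternatives, among them those without Zfx-flox ESC replicate 2 (0.58, adjusted p = 0.0639, limma), without Zfx-null ESC replicate 1 (0.58, 0.0626), without Zfx-cko HSC replicate 2 (0.61, 0.0647) and without Zfx-flox HSC replicate 1 (0.50, 0.0502). For Sesn2, Phlda3 and Perp the differences were 0.41 ± 0.25, −0.34 ± 0.14 and 0.43 ± 0.21, none of which passed, which does not show that the effects were equal. The Phlda3 difference did pass without Zfx-cko HSC replicate 1 (−0.46, adjusted p = 0.0371, limma).

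**Figure D3:**
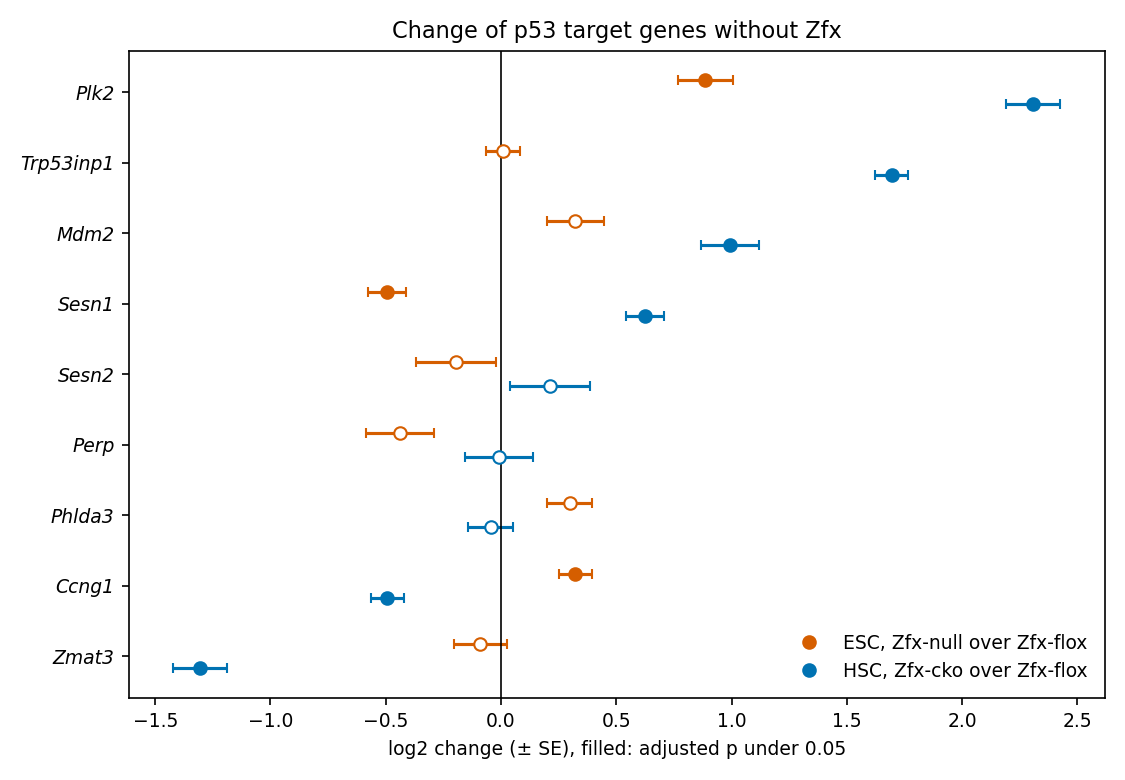
Fitted log2 change of the 9 members in ESC and in HSC, as Zfx-null or Zfx-cko over Zfx-flox, with bars of 1 SE; filled points passed the test. Plk2 lies right of 0 in both cell types, whereas Sesn1 and Ccng1 change sides. In HSC the side of Plk2 was set by the filter, which it passed through Zfx-cko alone.

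A longer list of 43 other genes known as p53 targets, of which 39 had a named probe set, was read beside the members. In Zfx-null ESC 7 of 39 tested rose and 4 fell, with a median log2 change of 0.065, against 15.3% of all genes called higher and 14.3% called lower, to which these counts are close. In Zfx-cko HSC 15 of 34 tested rose and 6 fell, with a median of 0.41, against 0.028 over all genes tested, of which 22.6% were called higher and 19.6% lower. Cdkn1a, the cell cycle inhibitor p21 and the best known target of p53, rose in both. It read 1824 and 1573 in Zfx-null ESC, against 989 and 836 in Zfx-flox ESC, and 473 and 528 in Zfx-cko HSC, against 226 and 223 in Zfx-flox HSC. Its log2 changes were 0.89 ± 0.11 in ESC (adjusted p = 0.000634, limma) and 1.11 ± 0.11 in HSC (adjusted p = 7.79e-05, limma), and the difference between them, 0.22 ± 0.15, did not pass. A second Cdkn1a probe set, 1421679_a_at, gave 0.71 in ESC, which did not pass (adjusted p = 0.0619, limma), and rose by 0.96 in HSC.

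Of the 34 other targets tested in both cell types, 8 were called in both, 3 in ESC alone, 13 in HSC alone and 10 in neither. Of all genes tested, 29.6% were called in ESC and 42.2% in HSC. The shares of all genes called in both, or in the same direction, were not computed, so these counts have no background and are descriptive. Of the 8, 6 had the same direction: Cdkn1a, the cyclin Ccng2, the lipase Abhd4, the ribonucleotide reductase subunit Rrm2b and Sertad1 rose in both, and Ei24, an autophagy protein, fell in both. Plk3, a stress-responsive polo-like kinase, and Ptpn14, a phosphatase that restrains YAP, were called in opposite directions. Plk3 read 292 and 274 in Zfx-null ESC, against 567 and 488 in Zfx-flox ESC, and 52.7 and 49.0 in Zfx-cko HSC, against 7.11 and 19.0 in Zfx-flox HSC. Its fall of 0.86 ± 0.21 in ESC did not pass without any 1 of the 4 ESC arrays (adjusted p = 0.0514 to 0.108), and its rise of 1.29 ± 0.21 in HSC came from a probe set that passed the filter through Zfx-cko alone. Ptpn14 read 1178 and 1183 in Zfx-null ESC, against 733 and 740 in Zfx-flox ESC, and 262 and 273 in Zfx-cko HSC, against 455 and 417 in Zfx-flox HSC.

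In ESC the strongest rise on this list among genes past the threshold was that of Apaf1, the core of the apoptosome. It read 899 and 998 in Zfx-null ESC, against 486 and 458 in Zfx-flox ESC (0.98 ± 0.08, adjusted p = 7.71e-05, limma), and 976 and 970 in Zfx-cko HSC, against 950 and 927 in Zfx-flox HSC. The nuclear body protein Pml fell by 0.73 ± 0.10 in Zfx-null ESC. In HSC the strongest were Sesn3, Ccng2 and Btg2, the last an antiproliferative gene. Sesn3, the third sestrin, read 574 and 637 in Zfx-cko HSC, against 178 and 183 in Zfx-flox HSC (1.67 ± 0.09, adjusted p = 4.35e-06, limma), while in ESC its change of 0.11 ± 0.09 did not pass. Ccng2 read 2537 and 2606 in Zfx-cko HSC, against 880 and 826 in Zfx-flox HSC, but its second probe set, 1448364_at, gave −0.10 and did not pass. Btg2 read 520 and 502 in Zfx-cko HSC, against 199 and 173 in Zfx-flox HSC. Ei24 was among the genes that fell, with 776 and 794 in Zfx-cko HSC, against 1644 and 1672 in Zfx-flox HSC. Among death genes, Pmaip1 (Noxa) rose by 0.78 ± 0.15 in HSC, while Bbc3 (Puma) gave 0.24 ± 0.20 in HSC and −0.11 ± 0.20 in ESC and passed in neither. Aen was lower in HSC, with 334 and 476 in Zfx-cko cells, against 675 and 701 in Zfx-flox cells. Pmaip1, Bbc3, Aen in HSC, Ei24, Rrm2b and Sertad1 fall outside the rule for named genes and were chosen after their values were seen.

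**Figure D4:**
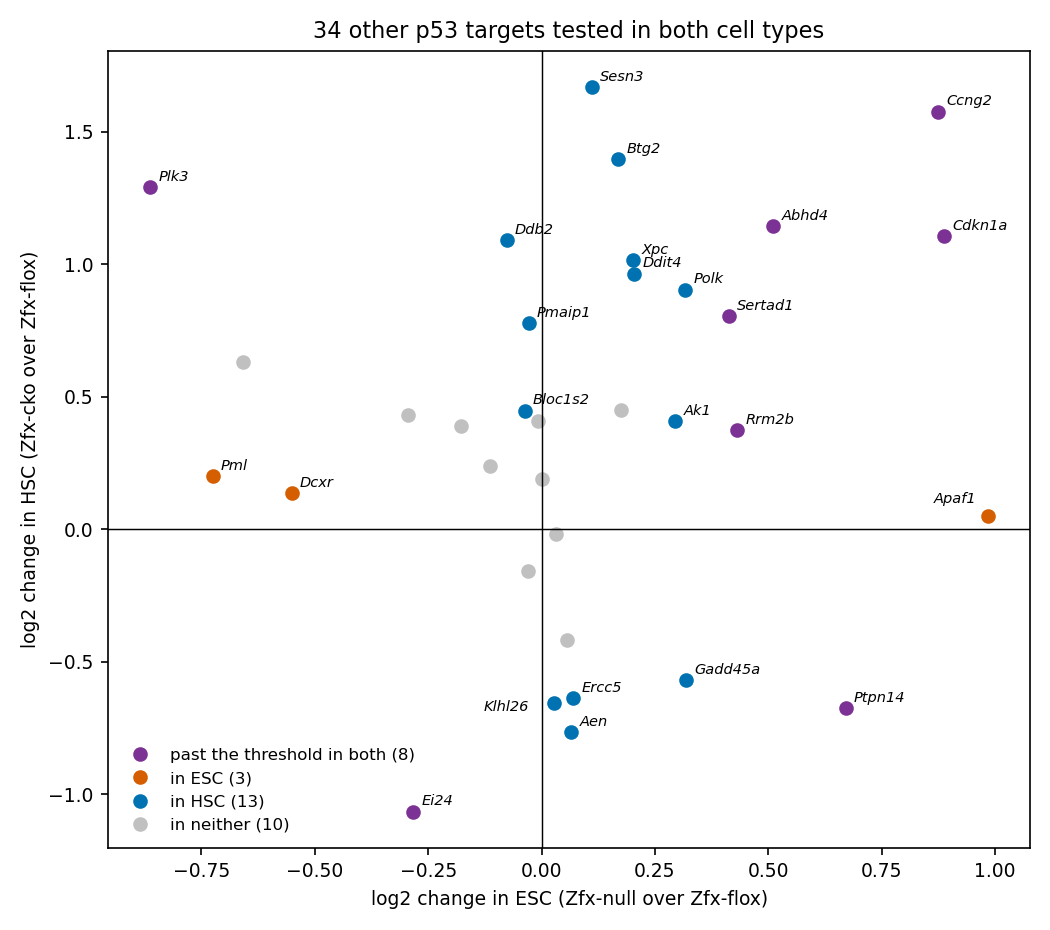
Log2 change in ESC (Zfx-null over Zfx-flox, x axis) and in HSC (Zfx-cko over Zfx-flox, y axis) of the 34 other p53 targets tested in both, each point being 1 gene. The 5 genes that rose in both lie at the upper right, and Ptpn14 and Plk3 stand in the corners of opposite change.

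Genes that act on p53 itself, a list of 30 with 28 named on the array, moved in both directions. In ESC 3 of 27 tested rose and 6 fell, with a median of −0.18, against 15.3% of all genes called higher and 14.3% called lower. Twist1 had the largest rise, 1.15 ± 0.25 (adjusted p = 0.00999, limma), and Ppp1r13b fell by 0.57 ± 0.17 (adjusted p = 0.0373, limma). Neither passed with no pseudocount. Counting that setting, the Ppp1r13b fall did not pass in 10 of 20 alternatives and the Twist1 rise in 3 of 19. Cdkn2a, the locus of p16 and of Arf, the inhibitor of Mdm2, read 227 and 237 in Zfx-null ESC, against 78.4 and 119 in Zfx-flox ESC. Its rise of 1.15 ± 0.28 passed (adjusted p = 0.0175, limma), but not without Zfx-flox replicate 1 (0.88, adjusted p = 0.11), Zfx-null replicate 1 (1.17, 0.0706) or Zfx-null replicate 2 (1.12, 0.08), and it was too dim to be tested in HSC. Mdm4, which binds and holds back p53, read 406 and 403 in Zfx-null ESC, against 578 and 537 in Zfx-flox ESC, a fall of 0.45 ± 0.08 (adjusted p = 0.00524, limma). Averaged over its probe sets, the change was −0.11 and did not pass (adjusted p = 0.635, limma). The deacetylase Sirt1, which removes acetyl groups from p53, fell in both cell types, by 0.77 ± 0.08 in ESC and by 0.80 ± 0.08 in HSC. It read 608 and 608 in Zfx-cko HSC, against 1090 and 1047 in Zfx-flox HSC, and 608 and 553 in Zfx-null ESC, against 1045 and 959 in Zfx-flox ESC. Hipk2, a kinase that phosphorylates p53, rose in both, by 0.72 ± 0.09 in ESC and by 0.76 ± 0.09 in HSC, although neither passed with the mean of its probe sets. In HSC 5 of 25 tested rose and 4 fell, with a median of −0.07, against 22.6% of all genes called higher and 19.6% called lower. The damage kinase Atm rose by 0.90 ± 0.19 in HSC at 1 probe set and gave −0.09 at another. Also in HSC, Ppp1r13b rose by 0.89 ± 0.17, Trp53bp1 rose by 0.69 ± 0.07 and Cop1 fell by 0.64 ± 0.08. The Trp53bp1 rise did not pass with the mean of its probe sets.

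Genes of mitosis that are known to be repressed through p21 and the DREAM complex after p53 activation, a list of 24 with 23 named and tested, fell in ESC. There 17 of 23 fell and 0 rose, with a median of −0.49, against 14.3% of all genes called lower by limma. Before adjustment, p was under 0.05 for 18 of the 23. Mybl2, the subunit that turns the complex to activation, read 627 and 778 in Zfx-null ESC, against 1441 and 1614 in Zfx-flox ESC, a fall of 1.11 ± 0.13 (adjusted p = 0.000519, limma). The centromere histone Cenpa fell by 0.76 ± 0.06 and the proliferation marker Mki67 by 0.76 ± 0.06. In HSC 7 of 23 fell and 2 rose, with a median of −0.21, against 19.6% of all genes called lower. Mybl2 read 62.6 and 58.9 in Zfx-cko HSC, against 119 and 102 in Zfx-flox HSC, and Cenpa read 3653 and 3754 in Zfx-cko HSC, against 5384 and 5631 in Zfx-flox HSC. With the mean of its probe sets the Cenpa change in HSC was −0.28 and did not pass (adjusted p = 0.223, limma). The difference between the cell types passed for 12 of 23, in each of which the HSC effect was the higher, against 17.4% of all genes called higher and 17.5% called lower.

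Markers of other cell types moved with these groups, and their part in the results was not tested. Of all genes tested, 15.3% rose and 14.3% fell in ESC, and 22.6% rose and 19.6% fell in HSC. In ESC the summed intensity of 12 fibroblast and stroma markers was 32912 to 35937 in Zfx-null cells, against 18788 to 19110 in Zfx-flox cells, and 8 of the 12 rose. The sum of 8 pluripotent cell markers was 20171 to 21192 in Zfx-null cells, against 32069 to 33634 in Zfx-flox cells, and 4 of the 8 fell. The sum of 8 endoderm markers was 5710 to 5892 in Zfx-null cells, against 3191 to 3216 in Zfx-flox cells, with 2 of 7 tested rising. In HSC the sum of 8 markers of stem and progenitor cells was 20200 to 20527 in Zfx-cko cells, against 8381 to 8641 in Zfx-flox cells, and 7 of the 8 rose. The sum of 6 erythroid markers was 3686 to 3709 in Zfx-cko cells, against 11140 to 11616 in Zfx-flox cells, and all 3 that were tested, Car1, Klf1 and Epor, fell. Most of that sum was Car1, with means of 3216 and 9095. Hba-a1 (20.3 and 20.3), Slc4a1 (26.4 and 21.6) and Alas2 (3.28 and 27.5) were too dim to be tested. The sum of 6 megakaryocyte markers was 4248 to 4254 in Zfx-cko cells, against 1256 to 1359 in Zfx-flox cells, and 4 of the 6 rose. Pf4 was the brightest, with a mean of 3389 in Zfx-cko cells and 930 in Zfx-flox cells. Gp9, with means of 144 and 16.6, passed the filter through Zfx-cko alone, so that it had to differ.

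The remaining marker lists were read in HSC as well, where 22.6% of all genes tested rose and 19.6% fell. Of the fibroblast and stroma markers 4 of 8 tested rose, with a sum of 7461 to 8051 in Zfx-cko cells, against 5437 to 5735 in Zfx-flox cells. Most of that sum was Vim, with means of 6292 and 4993. Among the collagens, Col1a2 was at 98.3 and 87.4, Col1a1 was at 23.7 and 19.6, and Col3a1 lay below the pseudocount in both groups. Postn was at 20.2 and 19.0. Pdgfrb was higher in Zfx-cko cells, with means of 826 and 195, as were S100a4 (261 and 90.7) and Thy1 (114 and 44.2). Pdgfra was lower, at 34.6 and 48.1. Of the endoderm markers 3 of 6 tested rose. The sum of 10 granulocyte and monocyte markers was 18788 to 19415 in Zfx-cko cells, against 15194 to 15239 in Zfx-flox cells, with S100a9, Camp and Itgam below the pseudocount in both and 1 of 7 tested rising. That of 10 lymphoid markers was 470 to 559 in Zfx-cko cells, against 300 to 342 in Zfx-flox cells, with Cd3e, Cd3g, Cd4 and Cd2 below the pseudocount in both and 1 of 4 tested rising. That of 7 mast cell and basophil markers was 3854 to 4025 in Zfx-cko cells, against 2201 to 2204 in Zfx-flox cells, with 2 of 7 rising. Interferon response genes, which pI·C, given to both HSC groups, is known to induce, summed to 3069 to 3145 in Zfx-cko cells, against 2475 to 2601 in Zfx-flox cells, with 3 of 9 rising and 1 falling.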

How the data were processed

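RNA of 8 samples was amplified, labelled and hybridized to Affymetrix Mouse Genome 430 2.0 arrays. The deposited values are linear intensities, 1 per probe set. The authors scanned the arrays and computed them in GCOS 1.4, per the submitters' processing notes. A trimmed mean of 250 was found on every array, which shows a common scaling, while the sources used here do not give the summarisation settings. Values were used as log2(intensity + 14.2), the pseudocount being the 25th percentile of all values, so fold changes of dim probe sets are understated. Control probe sets (64) were left out, and a probe set was tested where its mean in that cell type reached the 40th percentile, 27022 of 45037 in each.

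R 4.3.3 and limma 3.58.1 were used to fit the 4 group means jointly, with 4 residual degrees of freedom and moderated variances that follow a trend in intensity. The fit was tested on simulated data. P-values were adjusted by Benjamini-Hochberg over all tested probe sets. Zfx-null was set against Zfx-flox for ESC and Zfx-cko against Zfx-flox for HSC. The ESC change was then subtracted from the HSC change, on the same arrays. Precision is limited by the number of arrays, with a median SE of 0.168. Names came from the platform's probe annotation (34945 with 1 symbol, 932 with several and 9160 with none), 34741 of them matching a RefSeq gene of GRCm38.p6. A gene was represented by its probe set of highest mean log2 value over the 8 arrays. Coordinates and promoters are RefSeq's.

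Members and lists were chosen with earlier results of these data known. All members were described, and Cdkn1a. From the lists of other targets, regulators, and p21 and DREAM genes, at most 6 called genes of largest change and 3 uncalled ones of highest mean could be named per comparison. Alternatives changed the pseudocount, scaling, filter, choice of probe set, fit, variance trend, replicate block, or left out 1 array. Shared replicate numbers were not treated as pairs, since no label gives them that meaning.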

Additional observations from a re-analysis of the deposited data

Results flagged for a closer look

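For 6 members the change without Zfx differed between HSC and ESC by limma's test of the HSC effect minus the ESC effect, on the log2 scale. Cell type cannot be told apart there from the rounds of amplification and the way Zfx was lost. The difference was 1.69 for Trp53inp1, 1.42 for Plk2, 1.12 for Sesn1 and 0.67 for Mdm2, with the HSC effect the higher. The Plk2 value rests on a Zfx-flox HSC signal below the pseudocount and on a probe set that passed the filter through Zfx-cko alone, so its size is not settled. The Mdm2 value was not seen at a second probe set, which gave −0.32. The difference was −1.21 for Zmat3 and −0.82 for Ccng1, with the HSC effect the lower. With 2 arrays in each group, no single array could be tested as standing apart from its group.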

How the results depend on the processing

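Over 20 alternative settings, 488 of 527 recomputed log2 changes of members kept their direction and side of the threshold, 17 newly passed, 14 no longer passed and 8 changed sign. In HSC, 4 members rose and 2 fell under every alternative other than the filter at the 60th percentile, where Plk2 was not tested, and the mean of all probe sets, where Mdm2 did not pass. In ESC the count that rose, 2, was 1 with no variance trend, 4 with the replicate block, and 1 to 3 without 1 array. The count that fell in ESC, 1, was 2 with quantile normalization over all arrays, the filter at the 60th percentile, the mean of all probe sets, each cell type fitted alone and the replicate block. Of other p53 targets 1 to 5 fell in ESC without 1 array, against 4 with all: 1 without Zfx-flox replicate 1, and 2 without Zfx-null replicate 1 or replicate 2. The cause of these changes was not tested.

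Changes of sign were seen for members that had not passed: without 1 array, Zmat3 in ESC was −0.200 to 0.018 and Trp53inp1 −0.064 to 0.081, and in HSC Sesn2 was −0.030 to 0.454, Phlda3 −0.162 to 0.072 and Perp −0.143 to 0.125. With the mean of all probe sets Sesn2 in HSC was −0.246. The Cdkn1a difference was −0.079 with quantile normalization over all arrays. With the mean of all probe sets Kif23 was −0.092 in HSC and its difference −0.014.

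Fits over 1 probe set per gene tested fewer features and called 2011 higher and 1902 lower in ESC, against 3317 and 3434; 2873 and 2504 in HSC, against 5919 and 4358; and 1972 and 1988 for the difference, against 4076 and 3315. Without 1 array, 2052 to 3207 fell in ESC, the lowest without Zfx-flox replicate 1. Median centring moved the median difference to −0.05, against 0.07, and gave 2583 higher calls; the share of calls that were higher was then 42.1%, against 55.1%, and in HSC 47.5%, against 57.6%. The deviations of same-numbered arrays correlated at 0.317 in ESC and 0.0676 in HSC, and the replicate block newly called Mdm2, Phlda3 and Perp in ESC. Signal over background limits Plk2 and Plk3 in Zfx-flox HSC.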
